A study of Danio rerio with 8 samples.

Results

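Hsp90 and mitochondrial chaperone genes were followed across the sorted cells of a zebrafish muscle tumour: hsp90aa1.1, hsp90aa1.2 and hsp90ab1, which code for cytosolic Hsp90 proteins, and hspd1, which codes for the mitochondrial chaperonin Hsp60. They are 4 of 8793 genes named on the array, and they are read through the 6 probe sets, of 15502, that the annotation table assigns to exactly 1 of them. All 4 genes were measured, and no filter on low values was applied. hsp90aa1.1 has 1 probe set (Dr.610.1.S1_at), hsp90aa1.2 has 2 (Dr.25536.1.A1_at and Dr.610.2.S1_at), hsp90ab1 has 2 (Dr.1383.1.S1_at and Dr.13083.1.A1_at) and hspd1 has 1 (Dr.7108.1.S1_at). The genes were picked because of their values on these same arrays. Results for GFP-only against mCherry-only cells were among those known, and which values led to the choice is not recorded. The levels of these genes and most of their differences are therefore descriptions without a test.

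The tumours were embryonal rhabdomyosarcomas of a transgenic CG1-strain line, outcrossed 4 times, in which GFP marks cells with an active myf5 promoter (early myogenic cells) and mCherry marks cells with an active mylz2 promoter (differentiated fast muscle). All 8 samples share the oncogene, rag2-kRAS12D, injected at the one-cell stage, and all were taken more than 20 days after the tumour had been transplanted into syngeneic fish without either reporter. Host cells therefore carry neither reporter transgene, but whether any were sorted into a reporter-positive population was not tested. After 2 rounds of flow sorting, each of 2 tumours gave 4 populations: GFP-only (GFP+/mCherry-negative), double-positive (GFP+/mCherry+), mCherry-only (GFP-negative/mCherry+) and double-negative (GFP-negative/mCherry-negative), so that n = 2 arrays for each. The rag2 promoter drives the oncogene only in the cells where that promoter is active, and a sort gate is set by reporter brightness and not by cell type.

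Hsp90 is a dimeric, ATP-driven chaperone that completes the folding of kinases, steroid receptors and other client proteins together with a set of cochaperones. Zebrafish have a pair of Hsp90-alpha genes side by side on 1 chromosome, hsp90aa1.1 and hsp90aa1.2, which are neighbours in the RefSeq gene table. In zebrafish skeletal muscle hsp90aa1.1 works with the myosin chaperone unc45b in the assembly of myosin thick filaments, whereas hsp90ab1 codes for the broadly expressed beta form. Hsp60 forms a folding chamber in the mitochondrial matrix that is closed by the lid protein Hsp10, the product of hspe1, and hspd1 and hspe1 are neighbours in the same table.

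Values are the deposited log-scale signals, taken to be log2. No source names the logarithm, and every difference would be larger if it were a natural one. Each difference subtracts the second-named population, its error is the standard error (SE) of the limma model, and a level's error is the standard deviation (SD) over the 2 tumours. Array medians lay between 4.54 and 4.71, and depth does not apply to arrays, whose number limits the precision. In tumour 2 the mCherry-only array and the double-negative array were unlike the rest, with a mean rank correlation to the GFP-positive arrays of 0.648 and 0.653, against 0.805 to 0.849 for the other 6. The reporter-linked gene mylpfa (mylz2) had 7.40 and 6.23 in GFP-only, 10.71 and 10.87 in double-positive, 10.80 and 9.21 in mCherry-only and 4.58 and 4.73 in double-negative cells of tumours 1 and 2. Transcripts of myf5 had 5.47 and 5.21 in GFP-only, 3.81 and 6.02 in double-positive, 3.28 and 4.34 in mCherry-only and 3.96 and 4.07 in double-negative cells, so that the double-positive array of tumour 1 lay below both double-negative arrays.

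hsp90aa1.1, the muscle-linked Hsp90-alpha gene, was highest in double-positive cells and lowest in double-negative cells of both tumours. In tumours 1 and 2 its signal was 9.47 and 8.69 in GFP-only, 9.76 and 9.57 in double-positive, 8.27 and 6.43 in mCherry-only and 8.23 and 4.96 in double-negative cells. All 4 GFP-positive arrays lay above all 4 GFP-negative arrays. The share of all probe sets with such a split was not counted, so the split is only a description. The mean was 9.08 ± 0.55 for GFP-only, 9.66 ± 0.13 for double-positive, 7.35 ± 1.30 for mCherry-only and 6.59 ± 2.31 for double-negative cells (SD, n = 2 each). Going down this order, the GFP-only minus double-positive difference was -0.58 ± 0.99 (SE) and the mCherry-only minus double-negative difference 0.76 ± 0.99, both smaller than their error. The latter was only 0.04 in tumour 1 and 1.47 in tumour 2. The step between the GFP-positive and GFP-negative populations was larger, at 1.73 ± 0.99 for GFP-only minus mCherry-only. The low-to-high order double-negative, mCherry-only, GFP-only, double-positive was the same in each tumour. Of all probe sets, 5.91% kept some order in both tumours, whichever it was, and 0.419% kept this one. Tumour 1 was above tumour 2 in each population, by 0.78 for GFP-only, 0.19 for double-positive, 1.84 for mCherry-only and 3.27 for double-negative cells, while the median over all named genes lay between -0.15 and 0.05. Most of its spread between tumours thus sat on the pair of tumour 2 arrays unlike the rest. Erythroid and exocrine pancreas markers were on average highest in double-negative cells, where hsp90aa1.1 was lowest, while myeloid markers were on average highest in mCherry-only cells. The mean of 13 measured erythroid genes of 18 listed was 2.98 and 3.58 in GFP-only, 3.33 and 3.70 in double-positive, 4.02 and 4.82 in mCherry-only and 6.08 and 6.43 in double-negative cells, and that of 12 exocrine pancreas genes of 15 was 6.61 and 6.2 in double-negative cells and at most 3.99 elsewhere. Their part in the hsp90aa1.1 values was not tested.

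**Figure D1:**
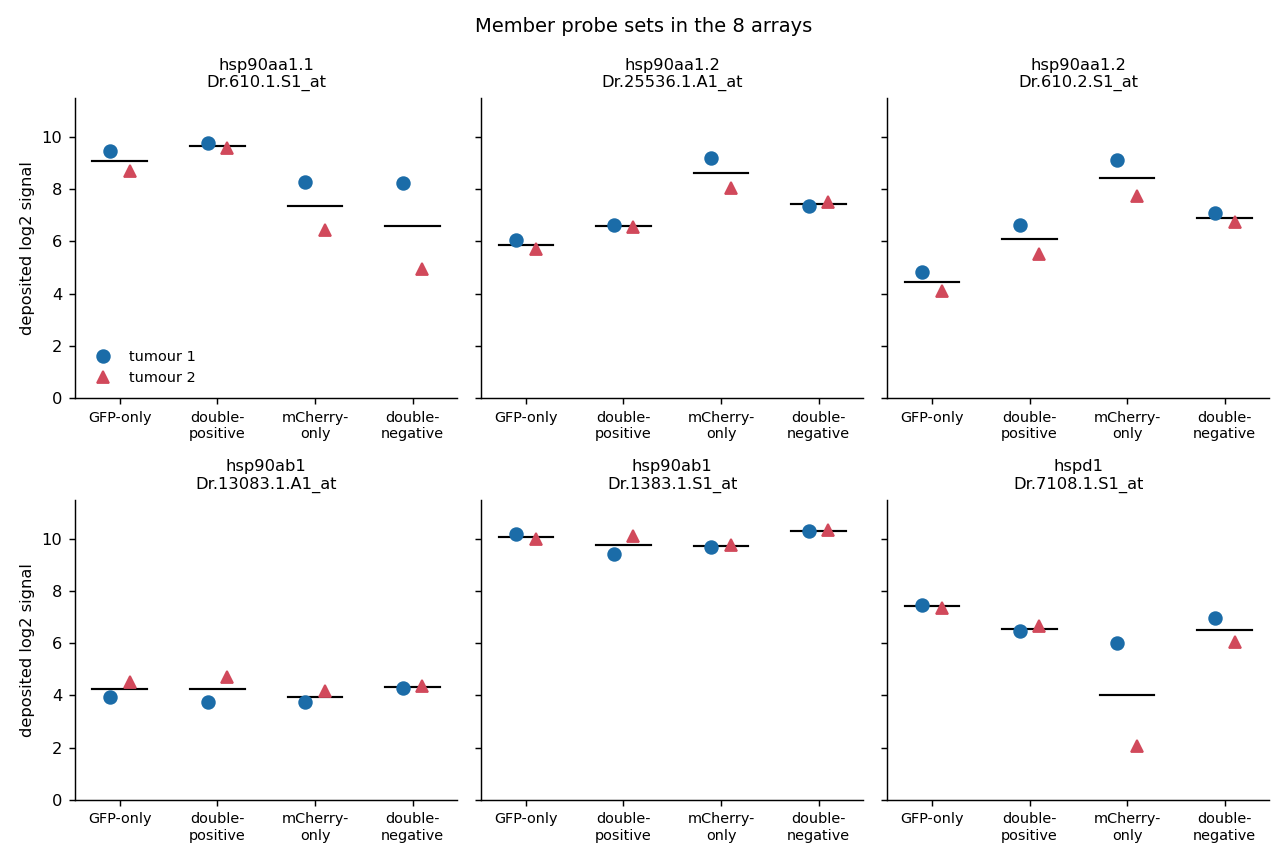
Deposited log2 signal (vertical axis) of each member probe set in the 4 sorted populations, with circles for tumour 1, triangles for tumour 2 and bars for the mean of the 2 arrays. hsp90aa1.1 is lowest in double-negative cells, hsp90aa1.2 is highest in mCherry-only cells, hsp90ab1 spans less than 1 unit, and hspd1 has a single low array at 2.05.

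The muscle partner of this gene had a like profile with smaller steps. unc45b, the myosin-specific cochaperone, had 8.36 and 8.08 in GFP-only, 8.87 and 8.46 in double-positive, 7.71 and 7.28 in mCherry-only and 7.67 and 6.53 in double-negative cells of tumours 1 and 2. Over the 8 arrays Pearson's r between unc45b and hsp90aa1.1 was 0.97, and 0.97 after each tumour's mean was subtracted, as a description of arrays that share tumours and amplification. Genes outside the chaperone lists had a higher r with hsp90aa1.1, up to 0.981 for lrig1. Fast muscle markers did not have this profile: the mean of 24 measured genes of 39 listed was 6.32 and 5.76 in GFP-only, 9.24 and 9.05 in double-positive, 8.92 and 7.45 in mCherry-only and 4.74 and 3.79 in double-negative cells. The fast muscle mean was thus higher in mCherry-only than in GFP-only cells of each tumour, while the order was the reverse for hsp90aa1.1. Within each tumour a myogenic regulator list was higher in both GFP-positive populations than in mCherry-only cells, and lowest in double-negative cells. The mean of its 9 measured genes of 13 listed was 6.16 and 5.63 in GFP-only and 6.10 and 5.77 in double-positive cells. It was 5.79 and 5.03 in mCherry-only and 5.08 and 3.87 in double-negative cells. In GFP-only minus mCherry-only cells 5 of the 9 were positive and 4 negative, and their part was not tested. In sorted bulk RNA, a lower signal from fewer cells of a type and one from less RNA per cell cannot be told apart.

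hsp90aa1.2, the neighbouring Hsp90-alpha gene, was lower on every GFP-positive array than on any GFP-negative one, on both of its probe sets. That split is the reverse of the one for hsp90aa1.1, and its share over all probe sets was not counted either. For both genes, however, GFP-only lay below double-positive cells and double-negative below mCherry-only cells in each tumour. Dr.610.2.S1_at had 4.82 and 4.11 in GFP-only, 6.64 and 5.53 in double-positive, 9.13 and 7.75 in mCherry-only and 7.08 and 6.73 in double-negative cells of tumours 1 and 2. Dr.25536.1.A1_at had 6.06 and 5.70 in GFP-only, 6.64 and 6.57 in double-positive, 9.19 and 8.03 in mCherry-only and 7.35 and 7.53 in double-negative cells. On both probe sets each GFP-only array was below every other array, and each mCherry-only array was above every other array. The share of all probe sets with this pattern was not counted, so it too is only a description. Means for Dr.610.2.S1_at were 4.46 ± 0.50 for GFP-only, 6.08 ± 0.78 for double-positive, 8.44 ± 0.98 for mCherry-only and 6.91 ± 0.25 for double-negative cells (SD, n = 2 each). Means for Dr.25536.1.A1_at were 5.88 ± 0.25 for GFP-only, 6.61 ± 0.05 for double-positive, 8.61 ± 0.82 for mCherry-only and 7.44 ± 0.13 for double-negative cells.

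The GFP-only minus mCherry-only difference of hsp90aa1.2 was -3.98 ± 0.66 on Dr.610.2.S1_at (-4.31 in tumour 1 and -3.64 in tumour 2) and -2.73 ± 0.57 on Dr.25536.1.A1_at (-3.13 and -2.33). In order of level, GFP-only and double-positive cells differed by -1.62 ± 0.66 and -0.72 ± 0.57 on these probe sets, and double-positive and double-negative cells by -0.82 ± 0.66 and -0.84 ± 0.57. The top pair, mCherry-only minus double-negative, differed by 1.54 ± 0.66 and 1.17 ± 0.57, and on Dr.25536.1.A1_at by 1.84 in tumour 1 but 0.50 in tumour 2. The order GFP-only, double-positive, double-negative, mCherry-only from low to high held in each tumour on both probe sets. It is kept in both tumours by 0.735% of all probe sets, where 5.91% keep some order, whichever it is. Over the 8 arrays the probe sets correlated with each other at r = 0.97, and with hsp90aa1.1 at r = -0.38 for Dr.610.2.S1_at and -0.47 for Dr.25536.1.A1_at.

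The neighbouring genes therefore stood in opposite order between the GFP-positive and GFP-negative cells. In GFP-only minus mCherry-only cells hsp90aa1.1 differed by 1.73 ± 0.99 while hsp90aa1.2 differed by -3.98 ± 0.66 and -2.73 ± 0.57, with the sign of each gene shared by both tumours. In GFP-only minus double-negative cells the values were 2.48 ± 0.99 for hsp90aa1.1 and -2.44 ± 0.66 and -1.56 ± 0.57 for hsp90aa1.2. These comparisons share the GFP-only arrays. In GFP-only minus double-positive cells, in contrast, the 3 probe sets all had negative values, between -1.62 and -0.58. A seventh probe set, Dr.610.2.S1_a_at, is assigned to both genes and is no member. It had 9.24 and 8.40 in GFP-only, 9.62 and 8.37 in double-positive, 9.62 and 7.64 in mCherry-only and 8.14 and 6.33 in double-negative cells of tumours 1 and 2, and its GFP-only and mCherry-only arrays overlapped. The coding sequences of such neighbouring copies can be similar, and how far any of these probe sets reads the other copy was not tested.

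The mean of the myeloid markers moved with hsp90aa1.2. The mean of 19 measured myeloid markers of 29 listed was 3.66 and 3.61 in GFP-only, 4.78 and 5.26 in double-positive, 8.20 and 8.39 in mCherry-only and 7.17 and 6.58 in double-negative cells of tumours 1 and 2, and no marker of the list was at 0 on any array. The list was chosen with earlier results of these data known, so its counts are descriptions. With limma (Benjamini-Hochberg adjustment over all probe sets, threshold 0.05), 14 of the 19 were lower for GFP-only against mCherry-only cells, where 1.03% of all named genes were. For GFP-only against double-negative cells 8 were lower, where 0.671% were. In mCherry-only minus double-negative cells 14 of the 19 had a positive and 5 a negative difference. There 4 were called higher and 1 lower, against 0.364% of all named genes in either direction. Among defining genes, the macrophage receptor gene marco had 2.43 and 2.82 in GFP-only, 5.99 and 5.28 in double-positive, 9.91 and 9.67 in mCherry-only and 6.10 and 4.38 in double-negative cells. The lysozyme gene lyz was high only in double-negative cells (10.81 and 10.57) and at most 3.60 on the other 6 arrays. The part of myeloid cells in the hsp90aa1.2 signal was not tested.

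**Figure D2:**
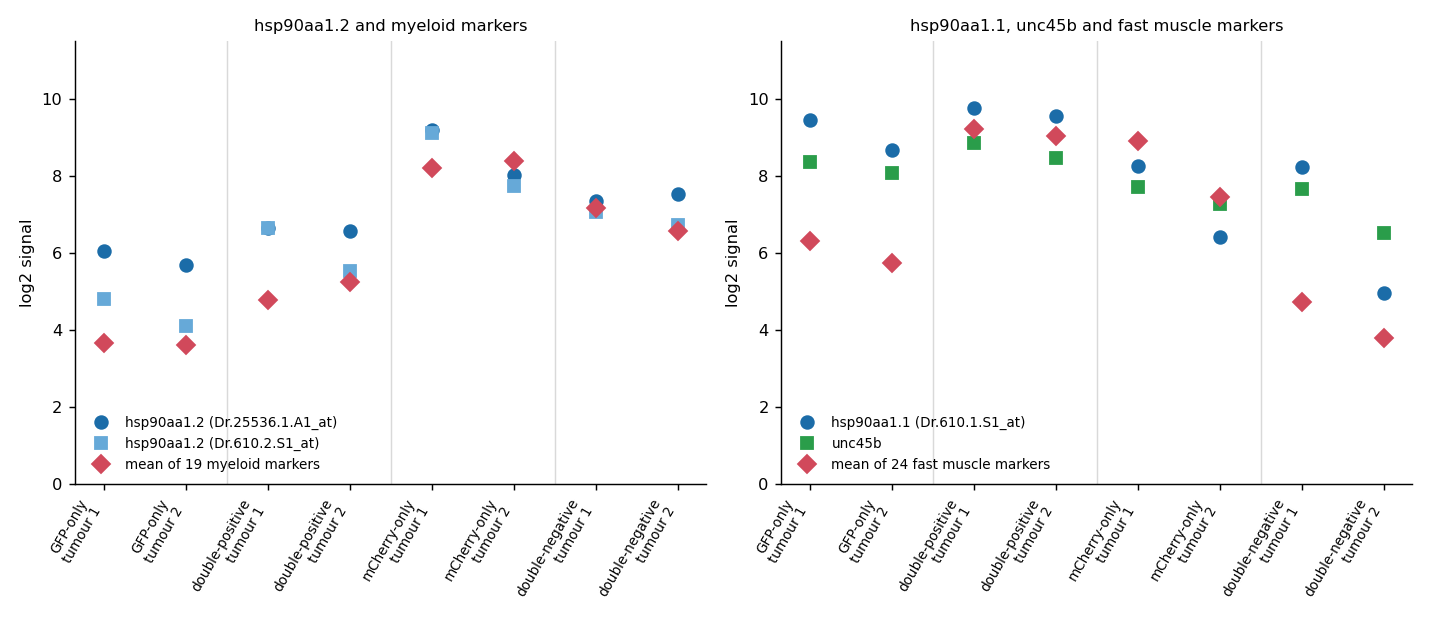
Log2 signal (vertical axis) by array, with the populations and tumours along the horizontal axis: left, both hsp90aa1.2 probe sets with the mean of 19 myeloid markers, and right, hsp90aa1.1 with unc45b and the mean of 24 fast muscle markers. hsp90aa1.2 and the myeloid mean are lowest on the GFP-only and highest on the mCherry-only arrays, while hsp90aa1.1 is higher on each GFP-positive array than on any GFP-negative one and the fast muscle mean is highest in double-positive cells.

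hsp90ab1, the constitutive Hsp90-beta gene, was nearly level across the populations. Dr.1383.1.S1_at had 10.17 and 10.00 in GFP-only, 9.40 and 10.12 in double-positive, 9.67 and 9.76 in mCherry-only and 10.30 and 10.33 in double-negative cells of tumours 1 and 2. The highest and lowest arrays were 0.93 apart, a range wider than that of 5.76% of probe sets. Double-negative cells were the highest population in both tumours, but the differences to them were small: -0.23 ± 0.53 from GFP-only, -0.56 ± 0.53 from double-positive and -0.60 ± 0.53 from mCherry-only cells. The other probe set, Dr.13083.1.A1_at, was dim, between 3.75 and 4.70 on arrays whose medians lay between 4.54 and 4.71, and its largest difference between populations was -0.39 ± 0.56, for mCherry-only minus double-negative cells. No order of the populations was the same in both tumours on either probe set.

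hspd1, the mitochondrial Hsp60 gene, was highest in GFP-only and lowest in mCherry-only cells of both tumours. It had 7.48 and 7.35 in GFP-only, 6.45 and 6.67 in double-positive, 5.99 and 2.05 in mCherry-only and 6.98 and 6.06 in double-negative cells of tumours 1 and 2. The GFP-only arrays were the highest of all 8, a pattern whose share over all probe sets was not counted. The mCherry-only value of tumour 2 lay under the lower quartile of its array (3.75). Means were 7.42 ± 0.09 for GFP-only, 6.56 ± 0.16 for double-positive, 4.02 ± 2.79 for mCherry-only and 6.52 ± 0.65 for double-negative cells (SD, n = 2 each). The GFP-only minus mCherry-only difference was 1.49 in tumour 1 and 5.30 in tumour 2, and the fitted difference without the mCherry-only array of tumour 2 was 1.42. GFP-only minus double-positive cells differed by 1.03 and 0.68, and GFP-only minus double-negative cells by 0.50 and 1.29. Double-positive and double-negative cells, the neighbours in the middle of the order, changed places between the tumours, with differences of -0.53 in tumour 1 and 0.61 in tumour 2.

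The partners of Hsp60 in the mitochondrion were also low on the mCherry-only array of tumour 2. hspe1, the Hsp10 lid gene, had 8.91 and 8.86 in GFP-only, 8.41 and 9.04 in double-positive, 7.29 and 5.02 in mCherry-only and 8.45 and 6.55 in double-negative cells of tumours 1 and 2. hspa9, the mitochondrial Hsp70 gene, had 8.65 and 8.93 in GFP-only, 8.55 and 8.72 in double-positive, 7.82 and 6.95 in mCherry-only and 8.38 and 7.0 in double-negative cells. On these probe sets both were lower in mCherry-only than in the other populations of their tumour, but a dimmer hspa9 probe set had 6.98 in mCherry-only and 6.89 in double-positive cells of tumour 1. Over the 8 arrays hspd1 correlated with hspe1 at r = 0.91 and with hspa9 at r = 0.77, or 0.89 and 0.74 after each tumour's mean was subtracted. These correlations were not particular to hspd1. The cytosolic hsp90aa1.1 correlated with hspe1 at r = 0.81 and with hspa9 at r = 0.90, the latter above the value for hspd1. The tumour 1 minus tumour 2 difference in mCherry-only cells was 3.94 for hspd1, 2.27 for hspe1 and 0.87 for hspa9. Medians there were 0.51 over 17 mitochondrial chaperone and protease genes other than hspd1, with hspe1 and hspa9 among them. They were 1.19 over 14 genes of the cytosolic chaperonin TRiC and of prefoldin, and -0.09 over all named genes. In double-negative cells the difference was 0.92 for hspd1, 1.9 for hspe1 and 1.38 for hspa9, beside a median of 0.05 over all named genes. Across the populations a cell cycle list was, like hspd1, highest in GFP-only and lowest in mCherry-only cells of both tumours, but in mCherry-only cells it was lower in tumour 1 than in tumour 2. The mean of its 20 measured genes of 23 listed was 5.65 and 5.74 in GFP-only, 4.87 and 5.30 in double-positive, 4.47 and 4.93 in mCherry-only and 5.42 and 5.56 in double-negative cells, and its part in the hspd1 values was not tested.

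**Figure D3:**
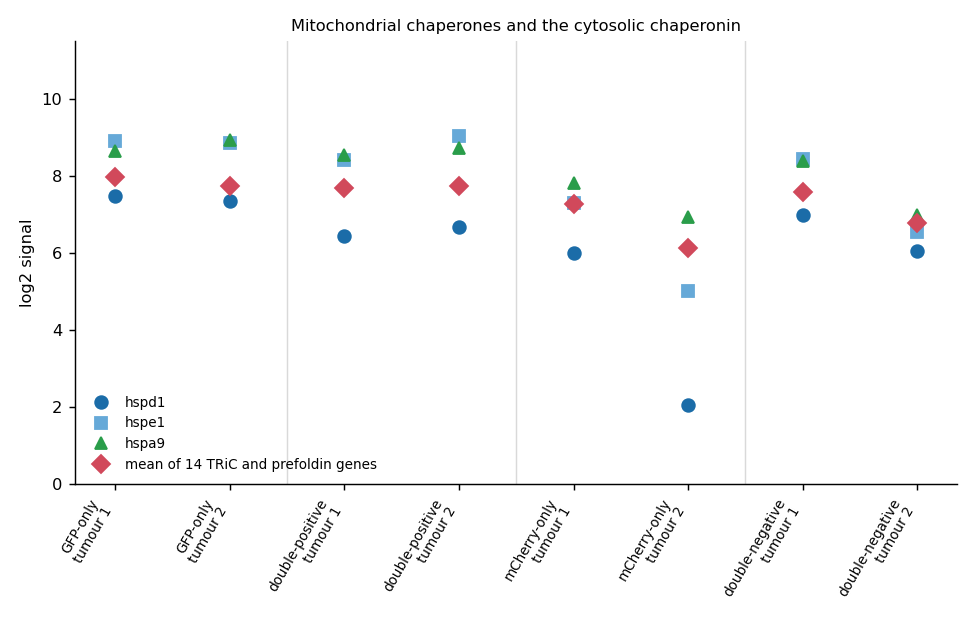
Log2 signal (vertical axis) of hspd1, hspe1 and hspa9 (its brightest probe set) and the mean of 14 TRiC and prefoldin genes on each of the 8 arrays, ordered by population and tumour. All 4 are lower in mCherry-only than in the other populations of the same tumour, and the lowest point is hspd1 at 2.05 in mCherry-only cells of tumour 2.

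Double-positive against double-negative cells is the pair of populations that shares no array with GFP-only against mCherry-only, and p-values are given for it. Which of the earlier results led to the choice of genes is not recorded, so this pair may have been used too, and its p-values support no finding. With limma and Benjamini-Hochberg adjustment over all 15502 probe sets, 0 of the 6 member probe sets passed, against 0.542% of all probe sets, and 1, hsp90aa1.1, had an unadjusted p under 0.05, as did 5.3% of all probe sets. The arrays did not overlap for 4 of 6 members, against 26.7% of all probe sets. hsp90aa1.1 differed by 3.07 ± 0.99 (adjusted p = 0.500), by 1.53 in tumour 1 and 4.61 in tumour 2. The hsp90aa1.1 difference was 4.71 with only the tumour 2 double-negative array, which was unlike most others, and 1.44 with only the tumour 1 double-negative array. The other 5 member probe sets differed by -0.84 to 0.04, each with an adjusted p of 0.999. The interaction of the reporters, the double-positive minus GFP-only difference less the mCherry-only minus double-negative difference, draws on all 8 arrays, the GFP-only and mCherry-only ones included, and is a description. It lay between -0.44 and 0.38 for 5 of the member probe sets, each with an SE above its size, and was 1.64 ± 1.46 for hspd1, of which tumour 1 gave -0.04 and tumour 2 gave 3.33. With 2 arrays a group, values that did not pass are not shown to be alike.

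For the other pairs, which the choice of members may have used, the counts are descriptions. The arrays did not overlap for 5 of 6 member probe sets in GFP-only minus mCherry-only cells, where 43.4% of all probe sets do not overlap, and for 4 of 6 in GFP-only minus double-positive cells, where 25% do not. They did not overlap for 5 of 6 in GFP-only minus double-negative cells (29.3% of all), for 4 of 6 in double-positive minus mCherry-only cells (38.9% of all) and for 5 of 6 in mCherry-only minus double-negative cells (29.8% of all). hspd1 differed by 2.54 ± 1.03 in double-positive minus mCherry-only cells (0.46 in tumour 1 and 4.62 in tumour 2) and by -2.50 ± 1.03 in mCherry-only minus double-negative cells (-0.99 and -4.01).

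**Figure D4:**
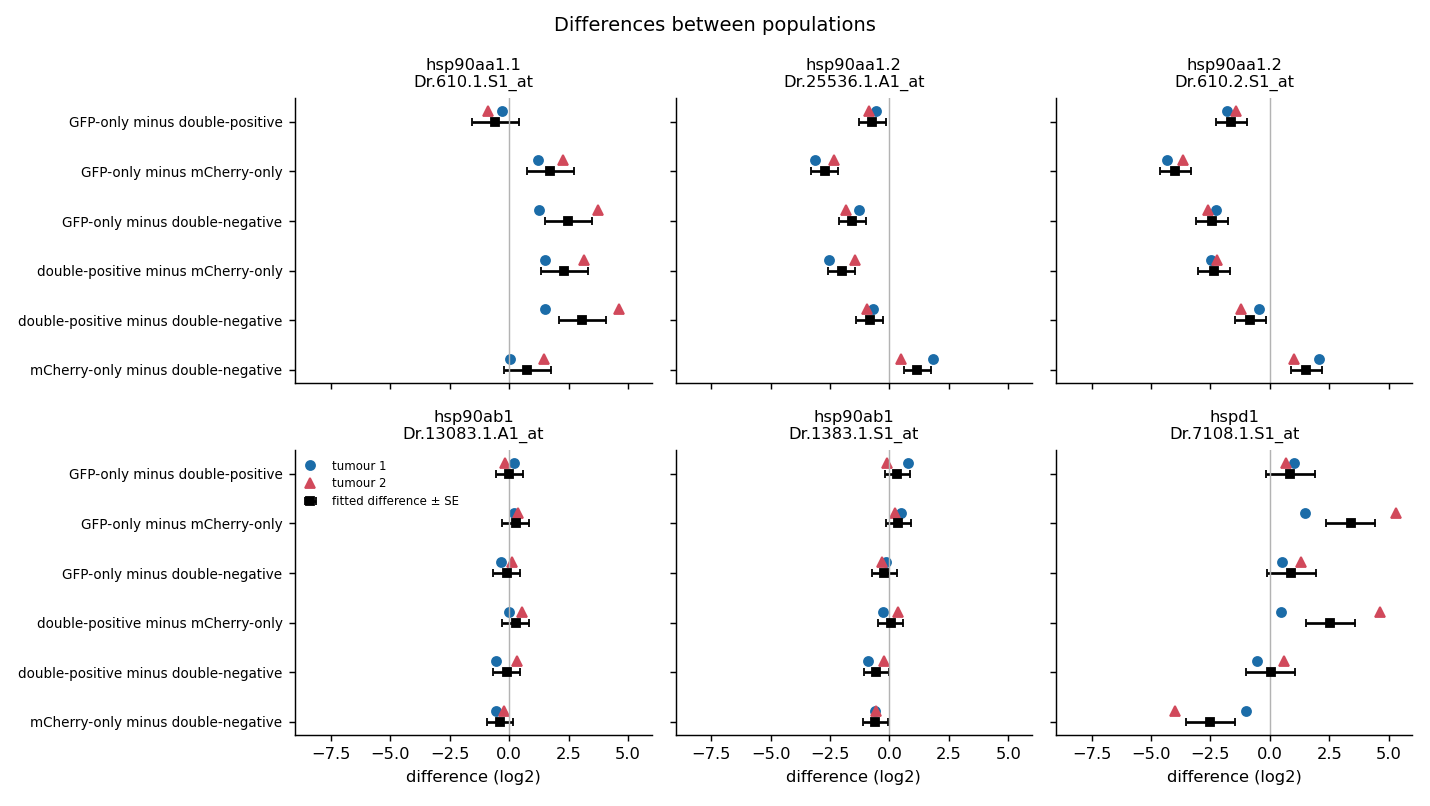
Differences between populations on the log2 scale (horizontal axis) for each member probe set, with black squares for the fitted difference ± SE and circles and triangles for tumours 1 and 2. hsp90aa1.1 and hsp90aa1.2 lie on opposite sides of 0 in GFP-only minus mCherry-only and GFP-only minus double-negative cells, and the tumours of hspd1 are far apart wherever mCherry-only cells are compared.

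The wider folding machinery was read from lists of cochaperones and chaperones grouped by function, of which 101 of 149 genes were measured. The lists were chosen with earlier results of these data known, so counts and medians over them are descriptions. With limma, 0 of the 101 genes passed in GFP-only minus mCherry-only cells, against 1.06% of all named genes, and at an unadjusted p under 0.05 there were 12 with a positive and 2 with a negative difference, against 12.4% of all named genes in either direction. In double-positive minus double-negative cells 1 gene was higher and 0 were lower, against 0.318% and 0.375% of all named genes. That gene was hspa1b, of the Hsp70 family, whose signal was 5.47 and 6.33 in GFP-only, 7.70 and 8.17 in double-positive, 5.72 and 5.43 in mCherry-only and 4.72 and 2.87 in double-negative cells of tumours 1 and 2. Its double-positive minus double-negative difference was 4.14 ± 0.69 (limma adjusted p = 0.0322), with 2.98 in tumour 1 and 5.30 in tumour 2. The tumour 2 double-negative value, 2.87, lay under the lower quartile (3.72) of that array, which was unlike most others. Leaving out either double-positive array or the tumour 2 double-negative array lost the call (adjusted p between 0.151 and 0.350). The small heat shock gene hspb1, a muscle-rich chaperone of actin filaments, had 7.56 and 6.38 in GFP-only, 8.53 and 8.22 in double-positive, 8.11 and 6.01 in mCherry-only and 5.22 and 2.82 in double-negative cells. Its tumour 2 double-negative value, 2.82, also lay under the lower quartile of that array (3.72). Its double-positive minus double-negative difference of 4.36 ± 0.91 missed the limma threshold (adjusted p = 0.0912) but passed it once the tumour was a block (adjusted p = 0.00704), which made 2 calls among the 101 genes. Fast muscle markers, also listed with earlier results of these data known, moved the same way in this pair. By limma 15 of 24 were higher and 0 lower, and their part in these values was not tested.

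In the remaining comparisons limma called 0 of the 101 genes. The background was 0.0114% of all named genes in GFP-only minus double-positive cells, 0.671% in GFP-only minus double-negative cells, 0.421% in double-positive minus mCherry-only cells and 0.364% in mCherry-only minus double-negative cells. At an unadjusted p under 0.05, 0 genes had a positive and 1 a negative GFP-only minus double-positive difference, against 2.16% of all named genes in either direction. These counts were 2 positive and 1 negative for GFP-only minus double-negative cells (4.74% of all named genes), 11 positive and 0 negative for double-positive minus mCherry-only cells (8.47%), and 4 positive and 2 negative for mCherry-only minus double-negative cells (6.63%). Among Hsp90 cochaperones, 0 of 23 passed in GFP-only minus mCherry-only cells, with values of 2.12 ± 0.71 for the immunophilin fkbp4, 1.79 ± 0.79 for the cyclophilin ppid, 1.44 ± 0.65 for ptges3a, a p23 gene, and -2.04 ± 0.81 for ahsa1a, an activator of the Hsp90 ATPase. In tumours 1 and 2 ahsa1a had 2.99 and 2.94 in GFP-only cells, under the lower quartiles of those arrays (3.38 and 3.67). It had 3.72 and 6.28 in mCherry-only cells, so that most of its difference sat on the tumour 2 array. The cochaperone list's median was 0.36, beside 0.005 over all named genes. For the other Hsp90 proteins the values there were 0.15 ± 0.79 for hsp90b1 of the endoplasmic reticulum and 0.94 ± 0.59 for trap1 of the mitochondrion. The mCherry-only values of trap1 in tumours 1 and 2, 3.39 and 2.49, lay under the lower quartiles of those arrays (3.64 and 3.75).

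Among 17 other mitochondrial chaperone and protease genes, 15 had a positive GFP-only minus mCherry-only difference, with a median of 0.64 and 0 called. The largest were hspe1 at 2.73 ± 0.84, the prohibitin phb2b at 2.00 ± 0.70 and the protease lonp1 at 1.76 ± 0.87. Each of them was larger in tumour 2. In tumours 1 and 2 lonp1 had 4.98 and 4.77 in GFP-only and 4.28 and 1.94 in mCherry-only cells. Its value of 1.94 lay under the lower quartile of that array (3.75). On the brightest probe set of each gene, all 14 TRiC and prefoldin genes had a positive difference, with a median of 1.00 and 0 called. They were led by the prefoldin subunit pfdn6 at 2.39 ± 0.90 and the phosducin-like pdcl3 at 1.53 ± 1.01, both larger in tumour 2. In tumours 1 and 2 pfdn6 had 5.69 and 6.35 in GFP-only and 5.17 and 2.09 in mCherry-only cells. Its value of 2.09 also lay under the lower quartile of that array (3.75). The values of pdcl3 were 8.72 and 7.97 against 7.99 and 5.64. The dimmer probe sets of pdcl3 (-0.46) and of the prefoldin subunit vbp1 (-1.06) had negative differences. The TRiC and prefoldin mean was 7.97 and 7.74 in GFP-only, 7.70 and 7.74 in double-positive, 7.29 and 6.12 in mCherry-only and 7.58 and 6.77 in double-negative cells of tumours 1 and 2. All 14 genes were also positive in GFP-only minus double-negative cells (median 0.59) and in double-positive minus mCherry-only cells (median 0.98). Positive differences numbered 13 in double-positive minus double-negative cells, 9 in GFP-only minus double-positive cells and 1 in mCherry-only minus double-negative cells. In GFP-only minus mCherry-only cells the Hsp70, Hsp110 and Hsp40 list had a median of -0.08 over 25 genes. There hspa14 was at 2.90 ± 0.68 (limma adjusted p = 0.113). The gene had 5.34 and 5.15 in GFP-only cells of tumours 1 and 2. Its mCherry-only values, 2.48 and 2.21, lay under the lower quartiles of those arrays (3.64 and 3.75). List medians in this pair were 0.50 over 13 endoplasmic reticulum chaperones, 0.16 over 4 small heat shock genes and 0 over 5 heat shock factor genes.

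**Figure D5:**
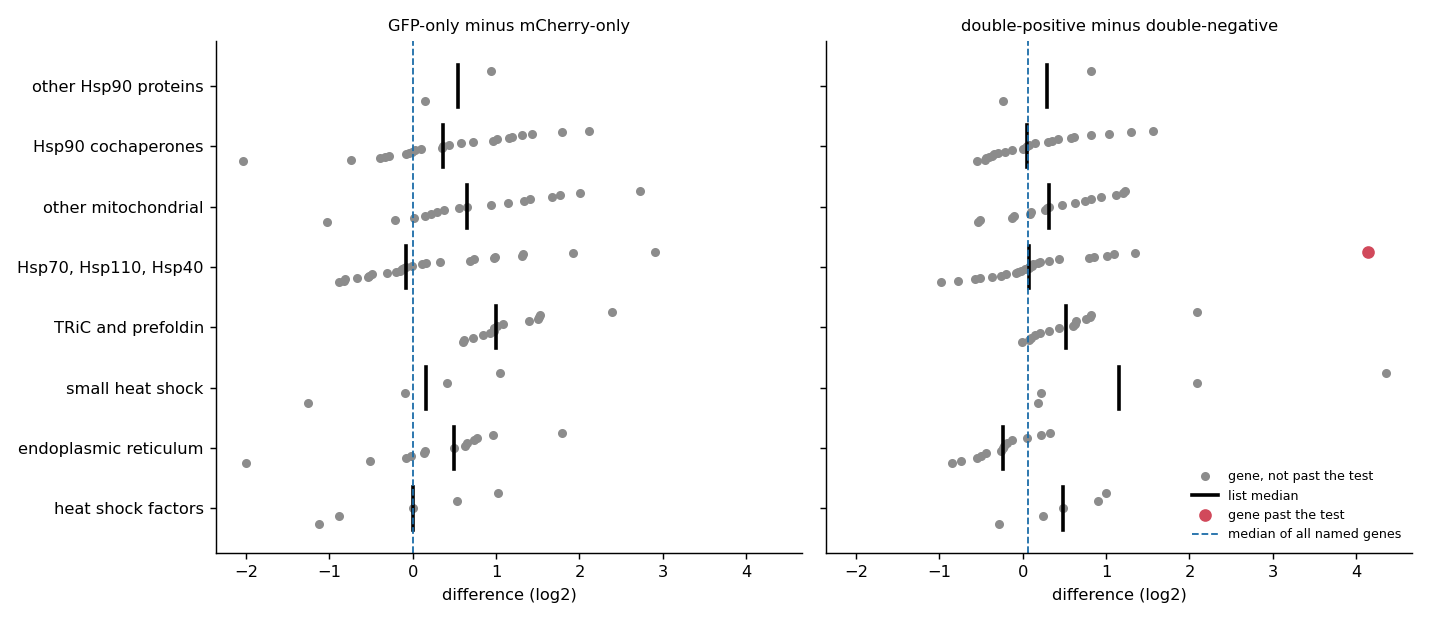
Differences of the genes of 8 chaperone lists (rows) on the log2 scale (horizontal axis) in GFP-only minus mCherry-only cells (left) and double-positive minus double-negative cells (right), with black bars for list medians and a dashed line for the median of all named genes. On their brightest probe sets, all 14 TRiC and prefoldin genes lie above 0 on the left without passing the test, and hspa1b on the right is the 1 gene that passed.

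The genes whose values were most like those of each member were sought among 4973 genes with a mean above the array median, by Pearson's r over the 8 arrays. For hsp90aa1.1 they were lrig1, aktip, fxr2, map7d1a and kyat3.2, with r between 0.977 and 0.981. For hsp90aa1.2 the 2 probe sets named 7 genes, ncf1, ctss2.1, ctss2.2, cfp, fgl2a, ctsla and slc26a5, with r between 0.930 and 0.948, and 3 of these, ncf1, ctss2.1 and ctss2.2, are on the myeloid list. ncf1 codes for a subunit of the phagocyte oxidase and the ctss2 genes for cathepsin S proteases. For hspd1 they were wdr36, rack1, rpl35, thoc1 and mccc2, with r between 0.976 and 0.987, of which rpl35 codes for a ribosomal protein and rack1 for a ribosome-bound scaffold. For the bright hsp90ab1 probe set, Dr.1383.1.S1_at, they were pcna, fdx1, rad21a, dpf2l and hdac1 (r between 0.920 and 0.964), and for the dim one copa, hnrnph1l, arl6ip5b, smarcb1b and acaa2 (0.949 to 0.978). The hsp90ab1 correlations rest on a range of under 1 unit. The 2 hsp90ab1 probe sets named no gene in common and correlated with each other at r = 0.65.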

How the data were processed

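Total RNA was amplified and labelled with biotin with the Ovation Pico WTA system, per the labels' protocols. The authors deposited 1 table of 15502 probe sets, whose values (0 to 12.79) were taken to be log2. How probes were summarised and scaled is not given in the sources used here. Values were used as deposited. Of the probe sets, 10795 had 1 gene symbol in the platform annotation, 135 several and 4572 none. Symbols were updated through RefSeq gene IDs. RefSeq neighbours refer to assembly GRCz12tu.

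Using limma 3.58.1 in R 4.3.3 (lmFit, then eBayes), the 4 populations were each given a mean in 1 model of the 8 arrays, with 4 residual and 6.07 prior degrees of freedom. Tests were two-sided, with Benjamini-Hochberg adjustment across the whole array for each comparison (threshold 0.05). P-values set each difference against the spread between the 2 tumours within a population. That spread was pooled over the 4 populations and moderated toward the spread of all probe sets. The tumour numbers in the labels pair the populations, since arrays of 1 number come from 1 tumour. Deviations of same-numbered arrays correlated between -0.0291 and 0.492. The main fit left this pairing out, and a blocked fit on tumour number was an alternative. The members and lists were chosen with earlier results of these data known. A gene outside the members is represented by its probe set of highest mean. Named chaperones are those called in any pair and up to 4 with the largest difference per list and pair. Alternatives were quantile normalization, leaving out the dimmest 30% of probe sets, only the arrays compared, leaving out 1 array or the pair that stood apart, and every probe set of a gene.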

Additional observations from a re-analysis of the deposited data

How the results depend on the processing

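No member was called between double-positive and double-negative cells under the replicate block, quantile normalization, the dim-signal filter, the fit to only the arrays compared or without the tumour 2 pair unlike the rest. Leaving out 1 array gave 0 to 1 member calls, where the remaining array is assumed to vary like the other populations. hspd1, at 0.04 in that pair, turned to -0.12 with quantile normalization and -0.42 without the tumour 2 pair, and ran from -0.42 to 0.50 with 1 array left out. The dim hsp90ab1 probe set (-0.11) ran from -0.57 to 0.36. The other chaperone genes called in that pair numbered 2 with the tumour as a block, 0 without the tumour 2 pair and 0 to 2 with 1 array left out, against 1 as reported. It was also 1 with every probe set of each gene. The remaining 5 pairs gave 0 such calls in every setting. The block changed no other call of the chaperone lists. Among the described GFP-only minus mCherry-only values, hsp90aa1.1 was 0.81 and hspd1 1.42 when the tumour 2 mCherry-only array was left out, and 2.65 and 5.37 when its tumour 1 counterpart was. The cause was not tested. Signal over background was not measured, so dim values have an unknown floor.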
